A study of Mus musculus with 9 samples.

Results

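Il4, Il13 and Csf2, which encode interleukin 4, interleukin 13 and the granulocyte-macrophage colony-stimulating factor GM-CSF, were followed in mouse mast cells together with Rad50 and Kif3a, the genes on either side of the Il4 and Il13 pair. The 5 genes were taken by symbol from the deposited tables, in which all 5 of them are among the 15109 genes listed. In these cells the 3 cytokine genes were higher after antigen, Il13 and Csf2 by far more than Il4, while Rad50 and Kif3a were not called with the scaling used here. In cells that had taxinine before antigen, Il4 and Il13 were lower than with antigen alone, Il4 by the larger share of its rise, and Csf2 was lower by a difference that missed the threshold.

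Messenger RNA was read from mast cells grown out of wild-type C57BL/6 bone marrow, in 3 groups of 3 libraries. The Control cells were untreated. The BSA cells were sensitised with anti-DNP-IgE, an antibody against the dinitrophenyl group, and then given DNP-BSA, serum albumin that carries this group and crosslinks the antibody on its receptor. The Taxinine cells had the same antibody and antigen after 1 h with taxinine, a taxane diterpenoid of yew. BSA against Control therefore joins sensitisation and antigen, which cannot be told apart. The labels name no taxinine dose, exposure time to antigen, solvent group or group with taxinine alone. The cells of every group were grown for at least 4 weeks with 30% medium conditioned by WEHI-3 cells, a leukaemia line that secretes interleukin 3, and this medium was part of every group. Replicates are called biological, but nothing says whether they came from separate animals or cultures, so each p-value reflects how these samples spread, which can be technical variation.

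Il4 and Il13 lie side by side in the type 2 cytokine locus. Interleukin 4 drives the switch of B cells to IgE and the type 2 fate of helper T cells, and interleukin 13 acts on epithelium, smooth muscle and macrophages through a receptor that shares a chain with that of interleukin 4. In T cells of the mouse, the end of Rad50 holds a locus control region for the neighbouring cytokine genes, while the Rad50 protein itself holds broken DNA ends in the MRE11-RAD50-NBS1 complex. Kif3a encodes a motor subunit of kinesin-2, which moves cargo along cilia and microtubules. Csf2, further along the chromosome, encodes a growth factor for granulocytes and macrophages. Mast cells transcribe such cytokine genes after the IgE receptor is crosslinked, when calcium activates the transcription factor NFAT and kinases activate AP-1.

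All 5 genes lie on chromosome 11 of GRCm38, in the GENCODE M21 annotation. Kif3a, on the plus strand, runs from 53567379 to 53601967 in 18 exons. Il4 lies 1014 bases beyond the end of Kif3a, on the minus strand from 53602982 to 53618669, with 4 exons in its principal transcript. Il13 follows after 12654 bases, on the minus strand from 53631324 to 53634702, also with 4 exons. Rad50, on the minus strand from 53649519 to 53707319 with 25 exons, lies 14816 bases past Il13. Csf2, on the minus strand from 54247271 to 54249667 with 4 exons, lies 539951 bases beyond Rad50, so it belongs to the same stretch of the chromosome but not to the tight pair. An antisense gene, Gm12223, covers 2068 bases of Csf2, and since the strand setting of the counting is not given in the sources used here, reads of these genes cannot be told apart. The cytokine genes Il5 and Il3 of the same chromosome have no row in the table and were not analysed here.

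The sequences shown are the 250 bases before the RefSeq start (build GRCm38.p6) of the 2 genes that passed the test in every comparison, on the minus strand and 5′ to 3′. Capitals mark motifs on either strand: GGAAA, the core letters of NFAT sites, which factors of other families bind as well; AGATAA, the motif of GATA factors; and TATAAA.
Il4 promoter, chr11:53618666-53618915: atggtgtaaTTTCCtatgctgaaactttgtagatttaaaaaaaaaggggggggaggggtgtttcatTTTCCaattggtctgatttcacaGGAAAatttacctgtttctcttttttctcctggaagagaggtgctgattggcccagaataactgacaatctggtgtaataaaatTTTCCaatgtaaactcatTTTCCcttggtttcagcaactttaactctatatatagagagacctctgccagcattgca
Il13 promoter, chr11:53634703-53634952: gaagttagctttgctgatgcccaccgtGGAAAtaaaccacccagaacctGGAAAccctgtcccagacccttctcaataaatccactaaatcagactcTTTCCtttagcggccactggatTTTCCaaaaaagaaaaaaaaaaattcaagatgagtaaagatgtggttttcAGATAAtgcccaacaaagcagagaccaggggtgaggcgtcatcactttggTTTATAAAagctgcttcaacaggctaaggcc
The Il4 window holds 5 matches to GGAAA and the Il13 window 4, while 1.59% of all 32851 RefSeq promoter windows of this length hold 4 or more and 55.6% hold at least 1. The Il13 window also holds AGATAA at -81 from the start, which 9.99% of windows contain, and overlapping matches to TATAAA on both strands at -31 and -29, which 12.4% contain. Neither window holds TGANTCA, the AP-1 motif, which 6.75% of windows contain, nor TGACGT, the core of the cyclic AMP response element, which 6.47% contain. The RefSeq start of Il13 is that of GENCODE and the one of Il4 differs by 4 bases. A second RefSeq start of Il4, 1331 bases from that of GENCODE, has no match to any of these motifs in its window. For Csf2 the RefSeq start lies 232 bases from that of GENCODE, so its window is not printed. It holds 2 matches to GGAAA and 1 to AGATAA, and the window of Kif3a, within 10 bases of its GENCODE start, holds 1 match to GGAAA. These matches describe letters only.

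Total counts per library were 13712274 to 14116976 in Control, 11680348 to 14005776 in BSA and 8975371 to 13829804 in Taxinine. Levels are given as CPM, counts over the library total on a common scale, after TMM factors, the trimmed mean of M values, had adjusted each total, and differences as log2 fold changes ± SE from edgeR's quasi-likelihood test over all 15109 genes, called at an adjusted p under 0.05. A limit of 3 counts in 1 library is 0.192 to 0.347 CPM. The choice of scaling matters between antigen and Control: with plain totals, the median gene shifted by -0.231 on the log2 scale and 13.6% of called genes were higher in BSA, against 47.6% with TMM. Between Taxinine and BSA the shift with plain totals was 0.0279, and 57.6% of called genes were higher in Taxinine, against 40.9% with TMM. Between Taxinine and Control it was -0.212, with 15% against 48.1%.

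Per kilobase of the principal transcript, Il4 was the most abundant of the 5 in Control at 59.8 CPM per kb, followed by Rad50 at 17.7, Il13 at 9.61 and Kif3a at 2.87. Csf2 had 2 counts in all 3 Control libraries together. In BSA the order per kb was Il13 at 233.8, Il4 at 122.1, Rad50 at 17.97, Csf2 at 5.60 and Kif3a at 2.84. In Taxinine the order was the same except for the last pair, with Il13 at 189.2, Il4 at 85.8, Rad50 at 17.8, Kif3a at 3.37 and Csf2 at 3.32. Il13 thus moved from the third to the first place in both groups given antigen. Taken over the union of all annotated exons, which is longer, the level of Il4 per kb was 28.8 in Control, 58.7 in BSA and 41.3 in Taxinine, and its place in each group was the same. Over this union Kif3a was at 2.97 and Csf2 at 3.32 in Taxinine, so the last pair then had the order of BSA.

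Il13 showed the strongest change at a measurable baseline. Its level was 13.9, 9.79 and 11.1 CPM in Control replicates 1 to 3 and 321, 242 and 282 CPM in the BSA replicates. Every BSA library was thus more than an order of magnitude above every Control library. The means were 11.6 ± 2.10 and 282 ± 39.9 CPM (SD, n = 3), a log2 fold change of 4.61 ± 0.09 (edgeR, adjusted p = 2.07e-36), which ranked 28th among the rises of all genes. In this comparison 34% of all genes were called, 16.2% higher and 17.8% lower, and 42.9% had groups that did not overlap.

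Il4 rose from a higher baseline and by less. Control libraries held 37.7, 33.5 and 34.6 CPM and BSA libraries 84.7, 59.7 and 71.8 CPM. The groups did not overlap, and the lowest BSA library was well above the highest Control library. The means were 35.3 ± 2.22 and 72.0 ± 12.5 CPM (SD, n = 3), with a log2 fold change of 1.03 ± 0.08 (edgeR, adjusted p = 4.64e-15) and rank 827 among the rises. The BSA libraries were spread widely: their coefficient of variation (SD over mean) was 17.4%, against a median of 4.27% over the 4764 genes with a mean of at least 500 counts, and 99.9% of these genes varied less than Il4 in BSA. BSA replicate 1 was the highest and replicate 2 the lowest, for Il4 as for Il13. The rise of Il4 was called in all 19 alternative settings, at 0.77 to 1.15 on the log2 scale.

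Csf2 was at the counting limit without antigen. Control libraries held 0, 2 and 0 counts and BSA libraries 54, 47 and 62 counts. At 4.10, 3.70 and 5.64 CPM, all BSA libraries stood far above the limit that a count of 0 allows in Control, 0.198 CPM in replicate 1 and 0.196 in replicate 3. The summed counts, 163 against 2, gave a ratio of 102 with an exact 95% interval of 27.7 to 848, which covers counting error only. The gene was called higher in BSA by edgeR (adjusted p = 6.69e-15) and in all 19 alternatives, but its fitted fold depends on the prior count. Each listed gene was counted in 4 or more libraries, and in Control only replicate 2 held any count of Csf2. Csf2 could thus have a row only through the groups given antigen. Its call as higher is therefore set in part by which genes have a row. Both Control counts came from replicate 2, and without it the fitted log2 fold change moved from 6.39 to 8.79, while limma on the deposited log2 values gave 2.31.

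The flanking genes were not called. Rad50 held 93.9, 85.9 and 93.5 CPM in Control and 90.8, 96.3 and 90.7 CPM in BSA. Its groups overlapped, the log2 fold change was 0.02 (95% interval -0.08 to 0.13), and edgeR's adjusted p was 0.780. Kif3a held 8.59, 9.02 and 9.62 CPM in Control and 9.41, 7.64 and 9.91 CPM in BSA. Its groups overlapped too, and the log2 fold change was -0.02 (95% interval -0.26 to 0.22; edgeR's adjusted p = 0.932). With plain library totals Rad50 came out lower in BSA by a log2 value of -0.20 (edgeR's adjusted p = 0.00114), which is smaller in size than the median shift of all genes under that scaling.

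**Figure D1:**
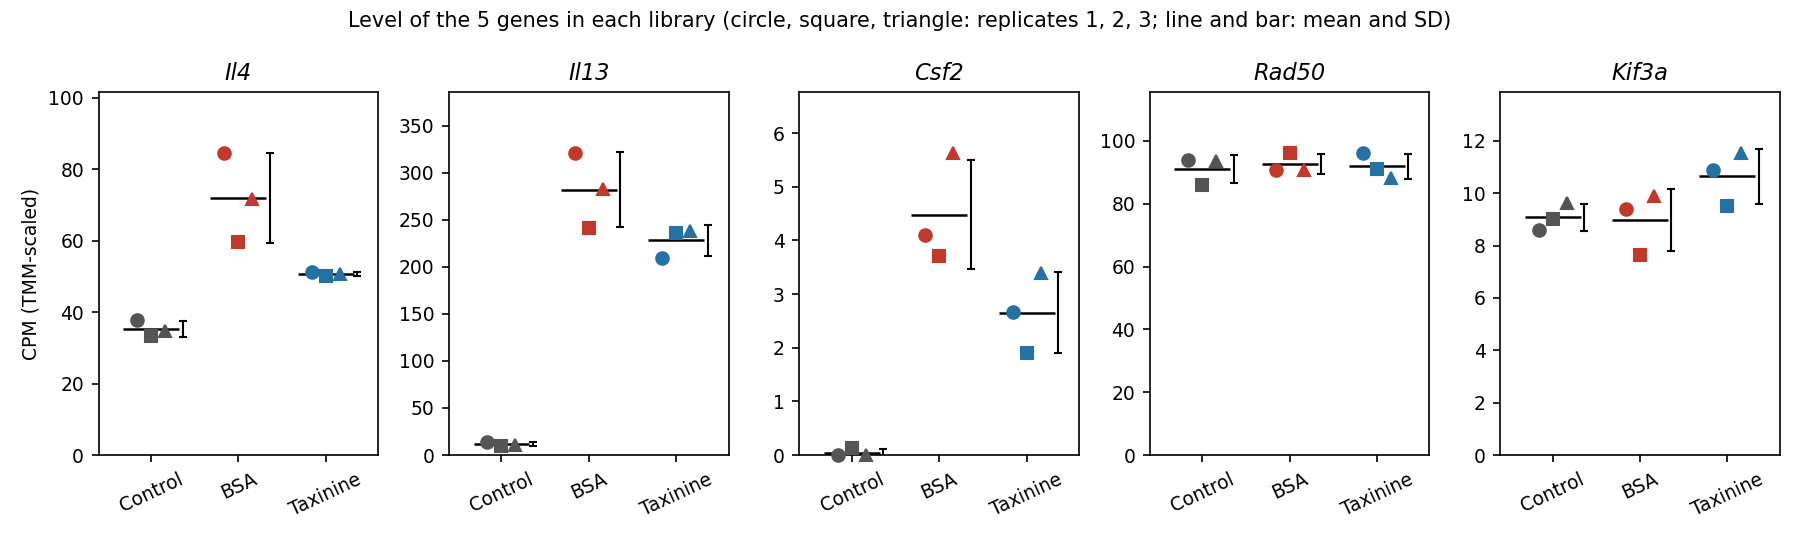
TMM-scaled CPM (linear axes from 0, one scale per gene) of Il4, Il13, Csf2, Rad50 and Kif3a in each of the 9 libraries, with lines for group means and bars for SD. The Il4, Il13 and Csf2 points of Control, BSA and Taxinine do not overlap between any pair of groups, those of Rad50 and Kif3a do, and the 3 Taxinine points of Il4 lie between 50.2 and 51.2 CPM.

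Counts of Il13 and Il4 from the same library can be compared without any scaling between libraries, though not corrected for length. In Control replicates 1 to 3, Il13 had 0.368, 0.293 and 0.320 counts per Il4 count. The BSA libraries had 3.79, 4.05 and 3.93, and the Taxinine libraries 4.09, 4.71 and 4.71. Untreated cells thus held more Il4 than Il13 reads in every library, and cells given antigen held more Il13 in every library. The mean ratio was 0.327 ± 0.0381 in Control, 3.93 ± 0.129 in BSA and 4.50 ± 0.356 in Taxinine (SD, n = 3). On the log2 scale BSA was 3.59 above Control, and Taxinine was 0.20 above BSA, with no overlap of the libraries in either comparison. The exact 2-sided permutation p was 0.1 in each of the 3 comparisons of groups, before and after adjustment over them, which is the smallest that 3 against 3 allows, so this design cannot reach 0.05. In BSA the ratio had a coefficient of variation of 3.28%, below the 17.4% of Il4 and the 14.2% of Il13 themselves, since BSA replicate 1 was highest for both genes.

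Against Rad50 counts from the same library, the Il4 ratio was 0.402, 0.389 and 0.370 in the Control libraries, 0.933, 0.620 and 0.791 in those of BSA, and 0.532, 0.551 and 0.573 with taxinine. The groups kept apart in this measure as well, in the same order as in CPM. Il13 per Rad50 count was 0.114 to 0.148 in Control, 2.51 to 3.54 in BSA and 2.18 to 2.698 in Taxinine. Here BSA and Taxinine overlapped, since Taxinine replicates 2 and 3 stood above BSA replicate 2. Csf2 counts were 1.28, 1.53 and 2.00% of Il13 counts in BSA and 1.27, 0.804 and 1.43% in Taxinine, with overlap between the groups.

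**Figure D2:**
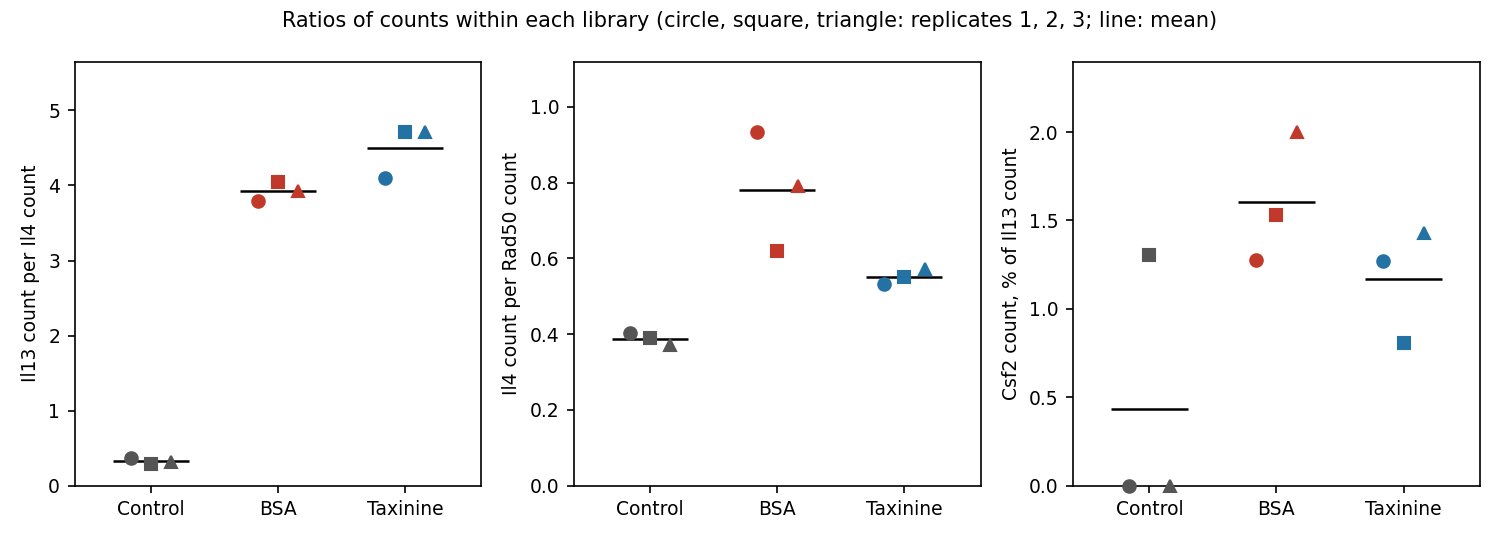
Ratios of raw counts within each library (linear axes from 0): Il13 per Il4, Il4 per Rad50, and Csf2 as a percentage of Il13, with lines for group means. The Il13 to Il4 ratio lies at or under 0.368 in all Control libraries, between 3.79 and 4.05 in BSA and between 4.09 and 4.71 in Taxinine; the single Control point of Csf2 above 0 rests on 2 counts.

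Taxinine against BSA compares cells given the same antibody and antigen. Il4 was lower in every Taxinine library than in every BSA library, and Taxinine was the group in which it varied least. Its level was 51.2, 50.2 and 50.6 CPM in Taxinine replicates 1 to 3, against the 84.7, 59.7 and 71.8 CPM in BSA. The mean was 50.7 ± 0.477 CPM (SD, n = 3), and the log2 fold change was -0.51 ± 0.08 (edgeR, adjusted p = 8.55e-06). The coefficient of variation in Taxinine was 0.942%, below the 3.86 to 4.76% that counting error alone gives a single Taxinine library. The closeness of these libraries is therefore not a measure of precision. In this comparison 6.98% of all genes were called, 2.86% higher and 4.12% lower, and 23.9% had groups that did not overlap. Marker genes of some other cell types summed to less in every Taxinine than in every BSA library as well. The sums for neutrophils and B cells overlapped between these groups. The part of such cells in the difference of Il4 was not tested. For basophils the sums were 1653 to 1682 against 1771 to 1862 CPM, for T cells and type 2 innate lymphoid cells 264 to 277 against 293 to 303 CPM. For eosinophils they were 20.1 to 22.6 against 25.8 to 30.7 CPM, and for macrophages and monocytes 80.6 to 84.6 against 89.5 to 97.7 CPM. The sum for T cells and type 2 innate lymphoid cells was mostly Lat, which mast cells express as well. Il4 was called in all 19 alternatives, with values of -0.63 to -0.37 and adjusted p-values of 2.34e-09 to 0.0011.

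Il13 was lower too, by less. Taxinine libraries held 209, 236 and 238 CPM, against 321, 242 and 282 CPM in BSA. The groups did not overlap, but the gap was narrow: the highest Taxinine library stood at 238.3 CPM and the lowest BSA library at 241.7 CPM, closer than the 1.78 to 1.81% that counting error gives each of these values. The mean in Taxinine was 228 ± 16.2 CPM (SD, n = 3), and the log2 fold change was -0.30 ± 0.06 (edgeR, adjusted p = 0.00132). The call was lost without BSA replicate 1, at -0.20 (edgeR's adjusted p = 0.0649), in DESeq2 and after quantile normalisation, and it was kept in the other 16 of 19 alternatives. The adjusted p lay between 1.51e-06 and 0.214 across the alternatives.

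Csf2 held 23, 20 and 45 counts in Taxinine against 54, 47 and 62 in BSA. That is 2.66, 1.90 and 3.40 CPM against 4.10, 3.70 and 5.64, with no overlap and a mean of 2.65 ± 0.749 against 4.48 ± 1.02 CPM (SD, n = 3). The log2 fold change of -0.71 ± 0.23 was the largest in size of the 5 genes but missed the threshold (edgeR's unadjusted p = 0.00396, adjusted p = 0.0541). The gene was called in 8 of 19 alternatives, with adjusted p-values of 0.0265 to 0.301 where one was given; DESeq2 gave none. The ratio of summed counts was 0.614, with an exact 95% interval of 0.468 to 0.801 that covers counting error only.

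Rad50 held 96.2, 91.2 and 88.3 CPM in Taxinine, overlapping with BSA. The log2 fold change was -0.02 (95% interval -0.12 to 0.09; edgeR's adjusted p = 0.928). Kif3a held 10.9, 9.51 and 11.6 CPM in Taxinine, of which replicates 1 and 3 lay above every BSA library. Its log2 fold change of 0.25 ± 0.13 had an unadjusted p of 0.0488 and an adjusted p of 0.250 in edgeR, and it was called in none of the 19 alternatives.

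**Figure D3:**
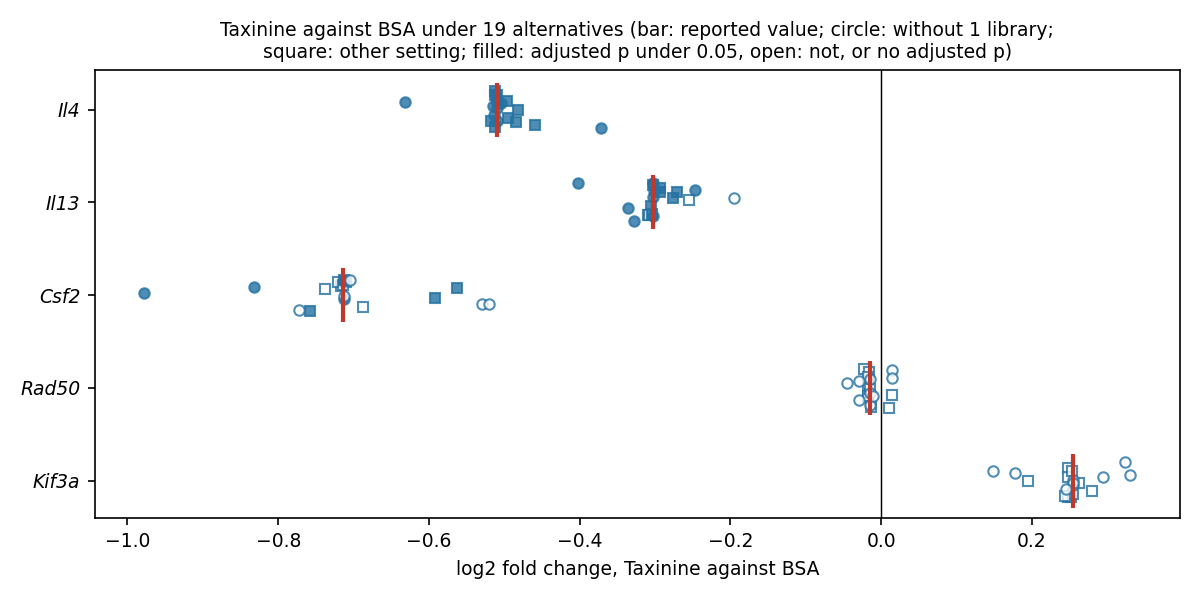
Log2 fold change of Taxinine against BSA for each of the 5 genes as reported (red bar) and under 19 alternative settings (circles leave out 1 library, squares change another setting; filled where the adjusted p is under 0.05, and open also where no adjusted p was given). Every point of Il4, Il13 and Csf2 lies below 0; all Il4 points are filled, 16 of 19 Il13 points and 8 of 19 Csf2 points are filled, and none of Rad50 or Kif3a.

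The part of the antigen rise still present with taxinine was the Taxinine level above the Control mean, as a percentage of the difference between the BSA and Control means. For Il4 it was 43.2, 40.6 and 41.7% in Taxinine replicates 1 to 3, for Il13 73.2, 83.2 and 83.9%, and for Csf2 59.0, 41.9 and 75.6%. Each Taxinine library thus kept less of the Il4 rise than of the Il13 rise, and the values of Csf2 ranged from those of Il4 to those of Il13. The means were 41.8 ± 1.30% for Il4, 80.1 ± 6.00% for Il13 and 58.9 ± 16.9% for Csf2 (SD, n = 3), where the SD covers the Taxinine libraries only. With plain totals they were 33.5, 81.5 and 59.9%.

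Against Control, the cells given taxinine and antigen held more of all 3 cytokine transcripts, in a comparison that shares its libraries with both others and in which 33.1% of genes were called, 15.9% higher and 17.2% lower, and 43.7% had groups that did not overlap. Il4 was higher by 0.52 ± 0.08 on the log2 scale (edgeR, adjusted p = 1.43e-06), with every Taxinine library above every Control library. Il13 was higher by 4.30 ± 0.09 (edgeR, adjusted p = 5.29e-35). Csf2 counts summed to 88 against 2, a ratio of 62.5 with an exact 95% interval of 16.8 to 524. Its fitted log2 fold change moved from 5.67 to 8.08 without Control replicate 2. Rad50 differed by 0.01 (edgeR's adjusted p = 0.927) and Kif3a by 0.24 ± 0.12 (edgeR's adjusted p = 0.134). The order of Control, Taxinine and BSA was thus the same for Il4, Il13 and Csf2, with each step between neighbours called for Il4 and Il13, the upper step of Il13 within the limits above, and the upper step of Csf2 not called. For Rad50 and Kif3a no group differed from its neighbour in the order beyond the threshold.

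The genes on this stretch were then read by position. Within 500 kb on either side of the 5 genes the annotation has 61 genes, of which 24 are in the table. Of the other 19, 4 were called higher and 2 lower in BSA than in Control, beside 16.2% and 17.8% of all genes. Fnip1, which encodes a partner of folliculin in nutrient sensing, rose by 0.69 ± 0.05 on the log2 scale, and Aff4, a scaffold of the super elongation complex, by 0.55 ± 0.05. Hspa4, a chaperone of the HSP110 family, rose by 0.22 ± 0.04, and Rapgef6, an exchange factor for the small GTPase Rap, by 0.22 ± 0.06. Both of these rises turned to values at or just below 0 with plain totals, -0.01 for each. Irf1, the interferon regulatory factor between Rad50 and Csf2, fell by 0.49 (SE 0.08), and Zcchc10 fell by 0.28 (SE 0.06).

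Most neighbours were not called between BSA and Control. P4ha2, which encodes a collagen prolyl hydroxylase subunit, was at 0.23 ± 0.11, Uqcrq, a subunit of respiratory complex III, at 0.13 ± 0.06, and Cdc42se2 at 0.06 ± 0.04, which turned to -0.1629 and was called lower with plain totals (edgeR's adjusted p = 0.00197), less in size than the median shift under that scaling. Septin8, a septin next to Kif3a, was at -0.08 ± 0.06 and the carnitine transporter gene Slc22a5 at -0.10 ± 0.13. Fstl4, Leap2, Gdf9, A430108G06Rik, Gm12216, Slc22a21, Slc22a4 and Gm12227 had 10 to 80 counts over all 9 libraries and were not called in any comparison. The median of the 19 was 0.02, beside -0.0041 for all genes. The share called among all 24 genes, members included, was 37.5%, beside the 34% of all genes.

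Between Taxinine and BSA, Il4 and Il13 were the called genes of the stretch and none of the other 19 was, in edgeR's quasi-likelihood test. The median of these 19 was -0.01, beside 0.0021 for all genes, and the 2 called are 8.33% of the 24, beside 6.98% of all genes. Leaving out 1 library moved the number called to between 1 and 4: without Control replicate 2 there were 4, and without BSA replicate 1 there was 1. Windows of 250 and 1000 kb also gave 2 called genes. Between Taxinine and Control 7 of the 24 were called higher and 3 lower, beside 15.9% and 17.2% of all genes, with Septin8 among the lower ones at -0.27 ± 0.06.

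**Figure D4:**
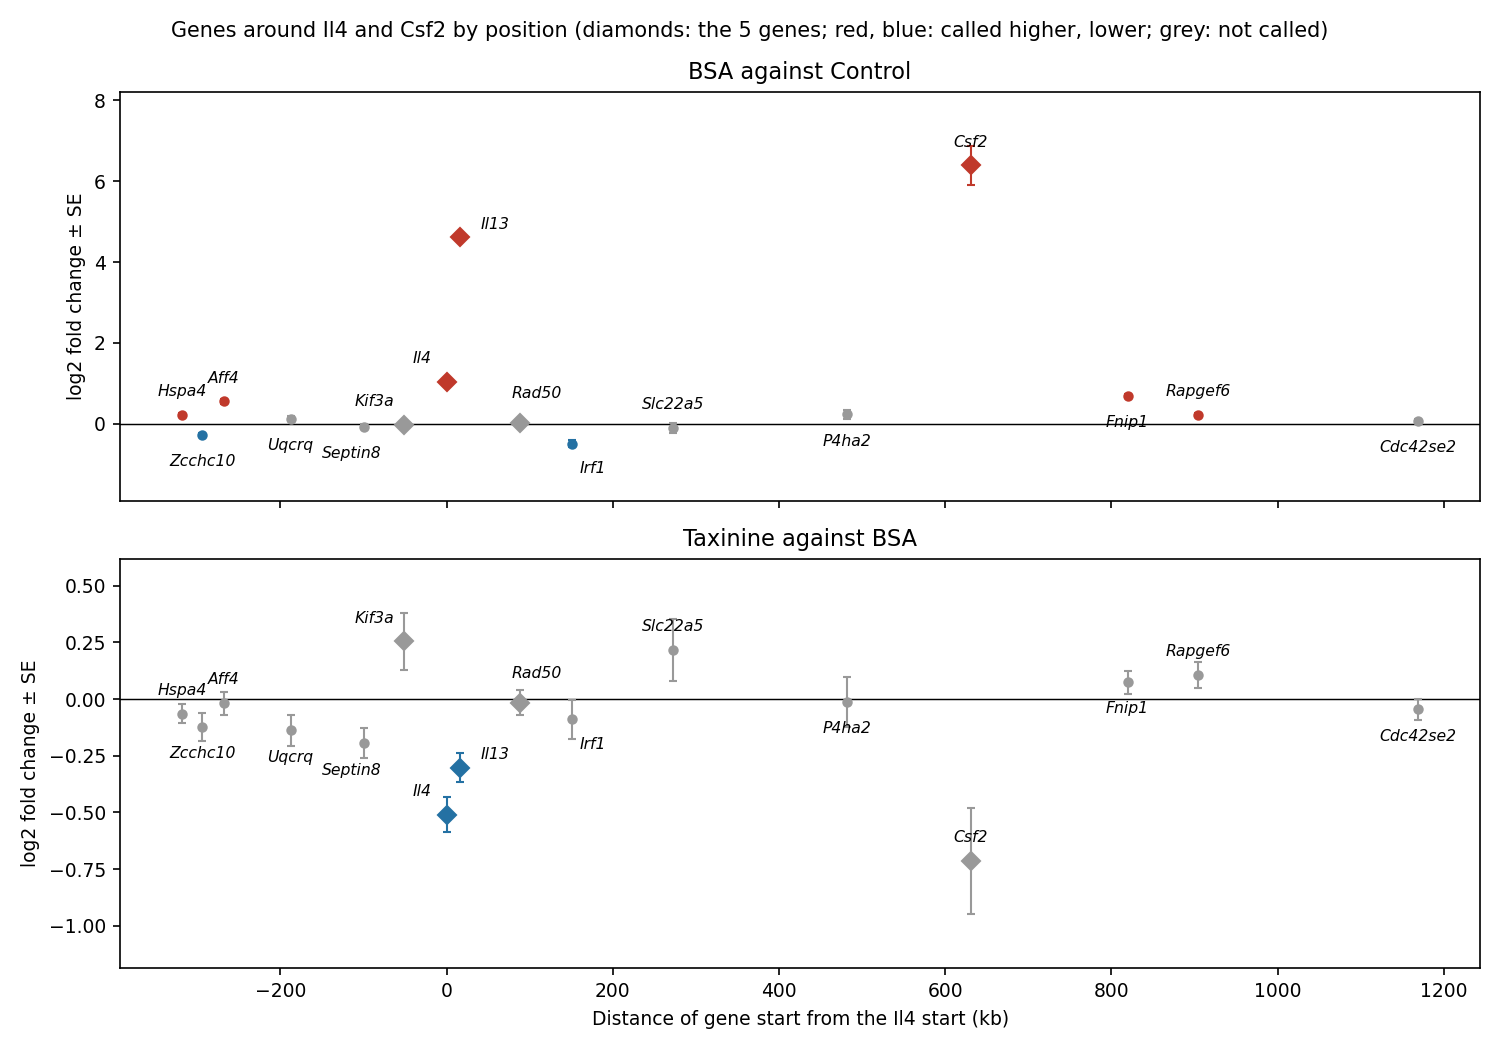
Log2 fold change ± SE (edgeR) of the genes around the locus by distance of the gene start from that of Il4 in kb, along the chromosome, for BSA against Control (upper panel) and Taxinine against BSA (lower panel), leaving out genes with fewer than 100 counts in all. Diamonds are the 5 genes, red and blue mark called rises and falls: Csf2 and Il13 stand far above their neighbours in the upper panel (the value of Csf2 depends on the prior count), and only Il4 and Il13 are coloured in the lower one.

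Transcription factors and chromatin regulators known from the type 2 locus were read as a list. Of 38 listed, 36 were in the table, and 19 were called higher and 4 lower in BSA than in Control, where 16.2% of all genes were called higher and 17.8% lower, with a median log2 fold change of 0.19 beside -0.0041 for all genes. The early growth response gene Egr2 rose by 6.93 ± 0.06, the AP-1 subunit genes Fosb by 5.42 ± 0.05, Junb by 2.81 ± 0.05 and Jun by 2.42 ± 0.04. Between Taxinine and BSA 1 was called higher, Jun at 0.18 ± 0.04, and 14 lower, where 2.86% of all genes were called higher and 4.12% lower, with a median of -0.16 beside 0.0021 for all genes. The AP-1 subunit genes Junb and Jund fell by 0.43 (SE 0.04) and 0.40 (SE 0.05), and the NFAT genes Nfatc2 and Nfatc1 by 0.51 (SE 0.06) and 0.35 (SE 0.04). Over the other settings the number lower in Taxinine than in BSA was 10 to 15, also when 1 library was left out, and the number lower in BSA than in Control was 3 to 16, the highest of these with plain totals. Between Taxinine and Control 18 were called higher and 10 lower, beside 15.9% and 17.2% of all genes.

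Within this list the NFAT and GATA genes were looked at one by one, a choice made after their values were seen. Nfatc1 stood at 160 ± 2.31 CPM in Control, 309 ± 7.56 in BSA and 242 ± 5.70 in Taxinine, the order of Il4 and Il13. Nfatc2 stood at 65.3 ± 1.69, 74.2 ± 5.08 and 52.3 ± 1.82 CPM, so that Taxinine was below Control as well. Its small rise with antigen, 0.18 ± 0.06, turned to -0.04 with plain totals. Nfatc3 was called in none of the comparisons, at 117 to 125 CPM in the group means. Gata2, the most abundant GATA gene here, stood at 1626 ± 28.9 CPM in Control, 1555 ± 38.4 in BSA and 1389 ± 5.59 in Taxinine, and fell by 0.16 (SE 0.04) between BSA and Taxinine. Gata1 fell with antigen by 0.40 (SE 0.05) and again with taxinine by 0.26 (SE 0.05). Gata3 fell with antigen by 0.89 (SE 0.14), to 4.64 ± 0.319 CPM, and differed between Taxinine and BSA by 0.29 ± 0.16, which was not called.

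Of 10 other type 2 and neighbouring cytokine genes, 4 were in the table, all at low counts, and all 4 were called higher in BSA than in Control, where 16.2% of all genes were. Other settings called 2 to 4 of them, and 3 or 4 were called when 1 library was left out. Il10, which encodes an immune-regulating interleukin, had 30 counts in BSA against 3 in Control, a ratio of 12.5 with an exact 95% interval of 3.88 to 64.0. Areg, the epidermal growth factor family member amphiregulin, had 36 against 7 counts. Tslp, an epithelial cytokine that drives type 2 responses, rose by 0.93 ± 0.25 on the log2 scale. Il33 had 5 counts against 0, and its call was lost in 8 of the alternatives. Every gene of the table had a count in 4 or more libraries, so Il33 could have a row only through the groups given antigen. Il10 and Areg had most of their counts in those groups too. That all 4 were called higher is therefore set in part by which genes have a row. None of the 4 was called between Taxinine and BSA in edgeR's quasi-likelihood test, where 6.98% of all genes were. In Taxinine 3 were called higher than in Control, 1 to 3 in other settings, beside 15.9% of all genes.

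Of 16 genes for receptors of these cytokines and their kinases, 14 were in the table, and 6 were called higher and 2 lower in BSA, beside 16.2% and 17.8% of all genes. Il4ra, the receptor chain shared by interleukins 4 and 13, fell from 1055 ± 22.4 to 808 ± 19.7 CPM, by 0.39 (SE 0.04) on the log2 scale. Il2rg, the common gamma chain that pairs with it in the receptor for interleukin 4, rose by 0.61 ± 0.05, the signalling adaptor gene Irs2 by 0.84 ± 0.05 and the phosphatase gene Ptpn6 by 0.26 ± 0.05. None of the 14 was called between Taxinine and BSA, beside 6.98% of all genes, and Il4ra stood at 810 ± 11.7 CPM in Taxinine. Other settings gave 2 to 7 called higher and 1 to 8 called lower in BSA, with 1 lower when Control replicate 3, BSA replicate 1 or BSA replicate 2 was left out.

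Of 20 genes known to respond to interleukins 4 and 13, 15 were in the table, and 5 were called higher and 2 lower in BSA, beside 16.2% and 17.8% of all genes. The feedback inhibitor genes Cish and Socs3 rose by 0.94 ± 0.04 and 1.21 ± 0.08, the transglutaminase gene Tgm2 by 0.85 ± 0.04 and the transcription factor gene Klf4 by 3.01 ± 0.15. Socs1, another feedback inhibitor, stood at 52.4 ± 7.29 CPM in Control, 30.7 ± 2.84 in BSA and 24.0 ± 2.46 in Taxinine. Between Taxinine and BSA 1 was called higher and 2 lower, beside 2.86% and 4.12% of all genes. Klf4 rose by 0.44 ± 0.10, and Bcl2l1, a survival gene, and Socs1 fell by 0.39 (SE 0.07) and 0.36 (SE 0.09). The fall of Socs1 was not called without BSA replicate 1, Taxinine replicate 1 or Taxinine replicate 3, which left 1 gene of the list called lower.

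The partners of the flanking genes were read in the same way. Of 14 genes of the MRE11-RAD50-NBS1 complex and the response to broken DNA, 4 were called higher and 1 lower in BSA than in Control, where 34% of all genes were called, and none between Taxinine and BSA, where 6.98% were. H2ax, the histone variant that marks breaks, rose by 0.52 ± 0.07, the end resection gene Rbbp8 by 0.21 ± 0.05, which turned to -0.01 with plain totals, and the kinase gene Atm by 0.23 ± 0.07, while Lig4, a ligase of end joining, fell by 1.57 (SE 0.24). Without BSA replicate 2, 2 were called higher, and other settings gave 1 to 5 higher and 1 to 4 lower, and up to 2 higher in Taxinine than in BSA. Of 18 genes of kinesin-2 and transport within cilia, 1 was called higher and 2 lower in BSA than in Control, beside the same 34% of all genes, and none between Taxinine and BSA. Arl13b, a ciliary GTPase, rose by 0.88 ± 0.09, and the transport particle genes Ift52 and Traf3ip1 fell by 0.33 (SE 0.07) and 0.55 (SE 0.16). Without BSA replicate 2, 1 was called lower, and without Control replicate 1 or BSA replicate 3, 2 were called higher, while other settings gave 1 to 4 higher and 1 to 5 lower.

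Genes with a pattern most like that of Il4 and of Il13 were found among 10717 genes by the root mean square difference of log2(CPM + 1), centred on the Control mean, over the 9 libraries. Nearest to Il4 were Rhoh, a GTPase of blood cells, at 0.123, Fermt2, an integrin adaptor, at 0.132, Ivl at 0.139, Glipr2 at 0.140 and Mmd at 0.141. Rhoh stood at 96.4 ± 2.05, 175 ± 11.2 and 135 ± 2.82 CPM in Control, BSA and Taxinine. Nearest to Il13 were Atf3, a stress-induced transcription factor, at 0.182, Ptgs2, the inducible cyclooxygenase, at 0.188, Trib1 at 0.190, Nfkbid, an inhibitor protein of the NF-kB family, at 0.257 and Marcksl1 at 0.385. Atf3 stood at 15.4 ± 0.793, 381 ± 24.6 and 271 ± 2.79 CPM in Control, BSA and Taxinine. The added 1 shrinks the rise of genes that are low in Control, such as Trib1 at 0.499 ± 0.0967 CPM. The fitted log2 rise of Trib1 in BSA against Control was 6.02 ± 0.17 and that of Marcksl1 5.16 ± 0.09, against 4.61 ± 0.09 for Il13. These are descriptions only, in which all genes compared share the depth and treatment of each library.

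The labelled cell type was read against marker genes. All 12 mast cell markers were in the table, with a summed level of 53870 to 55400 CPM in Control, 57800 to 59810 in BSA and 57800 to 59090 in Taxinine. Kit, the stem cell factor receptor, and Fcer1a, the binding chain of the IgE receptor, were called neither between BSA and Control nor between Taxinine and BSA, and stood at 3748 and 4389 CPM in Control. Of the 12 markers 6 were called higher and 1 lower in BSA than in Control, beside 16.2% and 17.8% of all genes. In Taxinine 1 was called lower than in BSA, the transcription factor gene Gata2, beside 4.12% of all genes. Named after their values were seen, the histamine enzyme gene Hdc was higher in BSA by 2.63 on the log2 scale and the tryptase gene Tpsab1 by 1.66, while Ms4a2, the beta chain of the IgE receptor, was lower at -0.35. Of 14 markers of T cells and type 2 innate lymphoid cells 7 were in the table, and the CD3 chain genes and Cd4 had no row. Their sum, 276 to 294 CPM in Control, 293 to 303 in BSA and 264 to 277 in Taxinine, was mostly Lat, which mast cells express as well. Of the 7, 2 were called lower in Taxinine than in BSA, beside 4.12% of all genes. They were Il7r at a log2 value of -0.57 (edgeR's adjusted p = 8.46e-05) and Lat at -0.14 (edgeR's adjusted p = 0.0339). Gata3, Rora, Trac and Klrg1 were higher in Taxinine and Lck lower, none of them called. Of 8 eosinophil markers 3 were in the table, without Epx and Prg2, with sums of 14.8 to 16.4, 25.8 to 30.7 and 20.1 to 22.6 CPM in the same order of groups. Of the 3, Siglecf was called higher in BSA than in Control and Ccr3 lower in Taxinine than in BSA, beside 16.2% and 4.12% of all genes. Mean Ccr3 in Taxinine, 7.51 CPM, was below the 9.08 in Control. Il5ra fell from 2.19 CPM in Control to 1.98 in BSA and 1.59 in Taxinine, with neither step called.

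Basophils, which also make interleukins 4 and 13, share several markers with cultured mast cells. All 5 of their markers were in the table, with sums of 1777 to 1832 CPM in Control, 1771 to 1862 in BSA and 1653 to 1682 in Taxinine. Of the 5, 2 were called higher and 1 lower in BSA than in Control, beside 16.2% and 17.8% of all genes. In Taxinine 1 was called lower than in BSA, beside 4.12% of all genes. Named after their values were seen, the receptor gene Cd200r3 was the one lower in BSA at -0.14, and the basophil protease gene Mcpt8 was higher in BSA than in Control by 0.25 on the log2 scale and lower in Taxinine than in BSA by a log2 value of -0.35 (edgeR's adjusted p = 5.57e-05). Of 10 macrophage and monocyte markers 9 were in the table, with sums of 75.7 to 78.0, 89.5 to 97.7 and 80.6 to 84.6 CPM in the same order. Of the 9, 3 were called higher in BSA than in Control and 1 lower, Fcgr1, beside 16.2% and 17.8% of all genes. In Taxinine 1 was called lower than in BSA, Lyz2, beside 4.12% of all genes. Most of the sum was Adgre1, at 49.8 CPM in BSA, which was not called between Taxinine and BSA. Neutrophil markers (1 of 8 in the table) summed to 0.231 to 0.946 CPM and B cell markers (3 of 5) to 1.39 to 3.04 CPM over all libraries. The eosinophil and macrophage sums had the order of the cytokine genes, though some members of both lists did not. The basophil sum was lowest in Taxinine, and the part of these cells in the results was not tested. In bulk samples, fewer cells of a type and less RNA per cell cannot be told apart.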

How the data were processed

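The tools named are STAR 2.7.0f, an aligner, and limma 3.11, and the builds are mm10 and GRCm38, per the submitters' processing notes. How reads were counted, on which annotation and with what strand setting, is not given in the sources used here. Libraries were stranded and read as pairs of 101 bases, per the labels' protocols. The authors deposited a table of counts, whose name speaks of normalised values but which holds unscaled whole numbers with a different total in each library. The deposited log2 values equal log2(CPM + 1) from plain totals, to within 5.0e-05. Each listed gene was counted in 4 or more libraries, and the lowest total over 9 libraries is 8. No row was left out, and all columns were used. The test and the normalisation follow from the counts.

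Counts were tested with edgeR 4.0.16 (quasi-likelihood, TMM factors, 1 fit over 9 libraries, no replicate term) in R 4.3.3, with Benjamini-Hochberg adjustment over 15109 genes. The biological coefficient of variation was 3.9%. Alternatives used edgeR with other scalings, DESeq2 1.42.0, limma 3.58.1 on the deposited log2 values, on voom-weighted counts and on quantile-normalised values (pseudocount 1), a filter on low counts, the compared groups alone, a replicate block, and each library left out. Ratios were tested by exact 2-sided permutation (scipy 1.17.1). The 95% intervals of log2 fold changes are normal approximations from edgeR's value and SE, which take in the spread of replicates. Intervals of summed counts and of their ratios are exact Poisson or binomial ones at 95%. The exact intervals and the limits for a count of 0 hold counting error only, as reads carried no molecular tags. Replicates of a group differed by more than sampling noise, with chi-square per degree of freedom of 1.56 to 4.20. Coordinates come from GENCODE M21, which holds 15106 of the identifiers, and promoter sequences from RefSeq, which matched 4 of the 5 genes with 5 entries.

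The genes and lists were chosen with earlier results of these data known. Named genes are the 5 genes, all listed genes within 500 kb, up to 4 of each list with the smallest p in a comparison, and the 5 genes most like Il4 and like Il13 (mean log2 of at least 1, predicted genes left out). Other names are said to be chosen after their values were seen, and marker genes are named to describe their lists.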

Additional observations from a re-analysis of the deposited data

How the results depend on the processing

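The rises of Il4, Il13 and Csf2 with antigen and the fall of Il4 between BSA and Taxinine kept their direction and call in all 19 alternatives. Csf2 could have a row only through the groups given antigen, which no alternative changes. Il13 in Taxinine against BSA was not called in DESeq2 (-0.31, adjusted p = 0.214) or after quantile normalisation (-0.26, adjusted p = 0.0738), and without 1 library it ran from -0.40 to -0.20, not called without BSA replicate 1. Csf2 in Taxinine against BSA was called with limma on the deposited log2 values (-0.56), after quantile normalisation (-0.59), with the compared groups alone (-0.71) and without Control replicate 1 or 2, BSA replicate 2 or Taxinine replicate 3, and ran from -0.98 to -0.52 without 1 library. With the replicate number as a block it was -0.76 and called (edgeR's adjusted p = 0.0303), and the genes called were 5078, 1093 and 4972 in BSA against Control, Taxinine against BSA and Taxinine against Control. Deviations of same-numbered libraries correlated at -0.101 to 0.0789, so the numbers were not taken to pair the samples. Plain totals raised the genes called in BSA against Control from 5144 to 7977, and limma on the deposited log2 values to 7852. Those in Taxinine against BSA ran from 616 to 1281 without 1 library, with 659, 616 and 699 without Taxinine replicates 1 to 3. Rad50 lay close to 0 and changed sign: in BSA against Control it was -0.2035 with plain totals and -0.2016 on the deposited log2 values, both called, -0.004149 with upper quartile scaling and -0.063 after quantile normalisation. In Taxinine against Control it was -0.1928 and -0.187, both called, -0.02659 and -0.08076 in the same order, and in Taxinine against BSA 0.01076 with plain totals and 0.01463 on the deposited values. Without 1 library these ran from -0.01686 to 0.04627, -0.03239 to 0.03846 and -0.04562 to 0.01471. Kif3a was 0.12 in BSA against Control and 0.32, called, in Taxinine against Control after quantile normalisation; without 1 library the former ran from -0.08782 to 0.08739. The kept part of the Il4 rise was 33.5% with plain totals and 35.8 to 50.5% without 1 library, lowest without BSA replicate 2 and highest without BSA replicate 1; that of Il13 ran from 74.6 to 86.5%. DESeq2 called 1 gene of the stretch in Taxinine against BSA, and leaving out a library gave 1 to 4. In BSA against Control, values of neighbours and list members turned sign with plain totals, on the deposited log2 values and, where given, after quantile normalisation: Hspa4 (-0.00552, -0.004833 and -0.07575), Rapgef6 (-0.01167 and -0.01273), Uqcrq (-0.1013 and -0.09633), Cdc42se2 (-0.1629, -0.1638 and -0.1074), Rbbp8 (-0.01299 and -0.01173), Nfatc2 (-0.04474 and -0.04647) and, after quantile normalisation, Slc22a5 (0.05191). Plain totals and the deposited values share their scaling, which moves the median gene; the cause of the other changes was not tested. Depth limits Csf2, Il10, Areg and Il33, which rest on few counts.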
